A study of Mus musculus with 24 samples.

Results

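Lysosomes are acidic organelles in which hydrolases break down material that a cell has engulfed or taken from its own cytoplasm. Cysteine cathepsins and other proteases, glycosidases, phosphatases and lipid hydrolases do this work, a membrane proton pump keeps the lumen acidic, and heavily glycosylated membrane proteins line it. The MiT family of transcription factors, which includes Tfeb, Tfe3, Tfec and Mitf, binds E-box sites near the starts of many lysosomal genes. In the lung, macrophages that take up inhaled particles are rich in lysosomes, and some cathepsins are also secreted and cut matrix proteins such as collagen and elastin.

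A list of 37 lysosome and cathepsin genes was followed across 24 samples of mouse lung RNA. Each gene was represented by the array spot with the highest mean over all samples among the spots that carry its name. Of the 37 genes, 36 had a named spot and all 36 exceeded the 40th percentile of signal in 24 of 24 samples, so that 36 of the 16519 genes tested were on the list. Atp6v0c, a membrane subunit of the proton pump, had no named spot and was not analysed here.

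The samples came from female C57BL/6 mice aged 7 to 8 weeks, without any genetic change named in the labels. Carbon nanomaterials in PBS were placed at the back of the throat and breathed in (oropharyngeal aspiration) at 10 µg per day in 50 µl on 4 days, and whole lung tissue was collected 24 h later. Of the 6 materials, those labelled rCNT, BayTubes and tCNT are nanotubes by name, the others are labelled Graphite, fullerene and SES, and Ctrl mice received 50 µl of PBS alone. Each sample pooled the RNA of 2 mice of a group, with 4 samples each after BayTubes, fullerene and Graphite and 3 in every other group, Ctrl included. Whole lung RNA mixes many cell types, so fewer cells of a type and less RNA per cell cannot be told apart. The labels do not say more about how the pools were made, and p-values measure the spread between these pools.

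The promoters of the members show which of them carry the sequence that MiT factors are known to bind. RefSeq promoters of build GRCm38.p6, from 250 bases before to 50 bases after the start, were at hand for 31 of the 37 genes. The 6-base E-box CACGTG, searched on both strands (it is its own reverse complement), was found in 8 of 31 (25.8%), against 8.09% of the promoters of 27025 genes. Its 8-base form TCACGTGA, which contains the 6-base E-box, was found in 4 of 31 (12.9%) against 1.12%, and a 10-base form, with a further G before and C after the 8 bases, in 0 of 31 against 0.37%. Stretches of 6 promoters are shown 5′ to 3′ on the strand of the gene with each CACGTG in capitals. Ctsk is shown because it had the largest difference after rCNT among the members and holds no CACGTG. Lgmn and Lamp1 are shown because they hold the E-box and passed the test after rCNT in opposite directions. Ctsd, Mcoln1 and Atp6v1a are shown because they hold the 8-base form and did not pass it. A gene with several promoter windows counted as holding a motif if any window held it. The Lgmn window shown was picked because it holds CACGTG, and its start lies inside the RefSeq span of the gene. The same is true of the starts of the Atp6v1a, Ctsa and Ctsl windows that hold CACGTG.
Ctsk, chr3:95499090-95499209, plus strand: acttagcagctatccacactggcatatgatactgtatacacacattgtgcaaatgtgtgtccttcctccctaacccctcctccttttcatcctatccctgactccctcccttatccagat
Lgmn, chr12:102439093-102439182, minus strand: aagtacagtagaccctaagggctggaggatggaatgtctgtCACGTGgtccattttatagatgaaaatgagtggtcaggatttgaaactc
Lamp1, chr8:13159071-13159160, plus strand: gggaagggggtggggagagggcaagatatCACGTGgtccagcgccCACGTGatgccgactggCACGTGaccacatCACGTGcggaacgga
Ctsd, chr7:142387878-142387967, minus strand: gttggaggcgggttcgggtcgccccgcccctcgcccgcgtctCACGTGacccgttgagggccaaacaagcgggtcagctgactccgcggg
Mcoln1, chr8:3500429-3500518, plus strand: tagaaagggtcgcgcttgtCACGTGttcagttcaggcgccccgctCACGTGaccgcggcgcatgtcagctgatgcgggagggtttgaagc
Atp6v1a, chr16:44139340-44139429, minus strand: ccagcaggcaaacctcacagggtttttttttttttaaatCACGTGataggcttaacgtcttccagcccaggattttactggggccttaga

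The Lamp1 stretch holds 4 copies of CACGTG, whose first bases lie at -61, -45, -28 and -15 from the start. The other carriers of the 6-base E-box were Ctsl, Ctsa and Glb1, and Ctsa also held the 8-base form. A second E-box, CATGTG or CACATG on the other strand, was found in 9 of 31 (29.0%) against 15.9%, and TGANTCA, an AP-1 type site, in 5 of 31 (16.1%) against 8.97%. The Ctsk window held none of the 5 motifs searched. A match describes the letters only, and whether a factor binds there in these lungs was not measured.

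**Figure D1:**
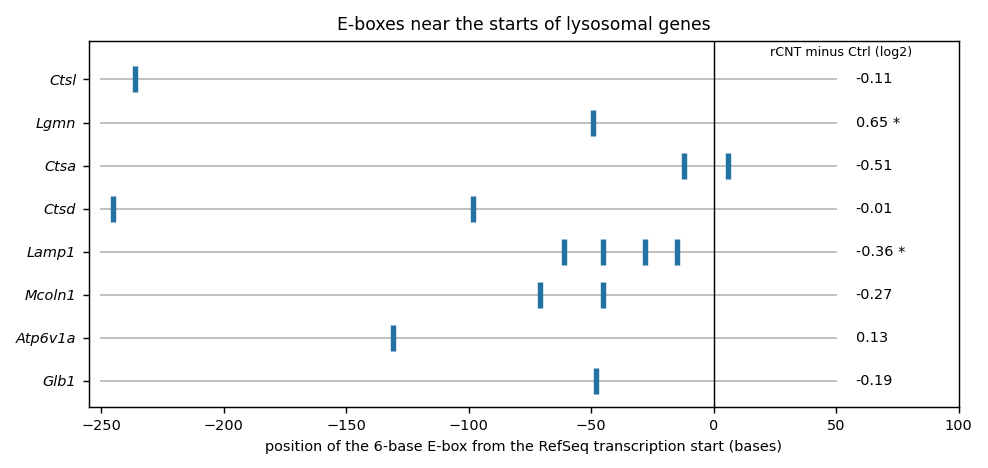
Position of each CACGTG E-box (blue ticks) in bases from the RefSeq transcription start, for the 8 members that hold one, with the log2 difference rCNT minus Ctrl at the right and an asterisk where it passed the test. Lamp1 holds 4 E-boxes and differed by -0.36, while Lgmn holds 1, near a start inside its gene span, and differed by 0.65. The starts used for Atp6v1a, Ctsa and Ctsl also lie inside their gene spans.

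Signals are given as log2 values as deposited, and a difference of 1 log2 unit is a 2-fold difference. Differences between groups were fitted with limma over all 24 samples with dye as a term and array as a random block, and are given ± SE. The Benjamini-Hochberg adjusted p is over all genes tested, and a gene was called at an adjusted p under 0.05. Precision is set by how few samples a group holds, since arrays give no read counts. Of the 36 genes, 14 were called in at least 1 of the 11 comparisons made and 22 in none. The share of all genes called in at least 1 of them was not counted. In rCNT against the mean of the other 5 materials alone, 26.2% of all genes were called. The comparisons with Ctrl all use the same 3 Ctrl samples. With array as a fixed term in place of the random block, which compares samples within arrays only, 3 of the 39 calls of members were kept: Ctsk after rCNT and after BayTubes, and Lamp1 in rCNT against the other 5 materials. The other 36 calls given here were lost in that fit. It spends a term on each array, which leaves fewer residual degrees of freedom and makes a call harder to reach. With only the groups of the comparison in the fit, which also leaves fewer degrees of freedom, 21 of the 39 calls were kept. The rCNT calls against Ctrl of Ctsb, Ctsh, Ctss, Lgmn, Cd63 and Lamp1 were lost there, as was the tCNT call of Ctsk.

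Before any comparison, Tpp1 stood apart in both samples of 1 array. Tpp1, a lysosomal peptidase, had a signal of 14.24 in Ctrl 1 and 15.97 in Graphite 13, which shared an array, and lay between 9.76 and 10.73 in the other 22 samples. Its fitted difference after rCNT was -0.68 ± 0.93. Without that array the differences from Ctrl lay between -0.21 and 0.10 for the 6 materials, with SEs of 0.12 to 0.15. Over all genes, the residuals spread most in rCNT 4 (SD 0.469), Graphite 13 (SD 0.414), Graphite 16 (SD 0.387) and rCNT 5 (SD 0.347), against 0.154 to 0.27 elsewhere. An array was shared by rCNT 4 and Graphite 16. Graphite 13 was the lowest of its group for 16 of the 36 members and the highest for 9. Graphite 14 was the lowest for 4 and the highest for 22, so these counts do not set Graphite 13 apart.

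**Figure D2:**
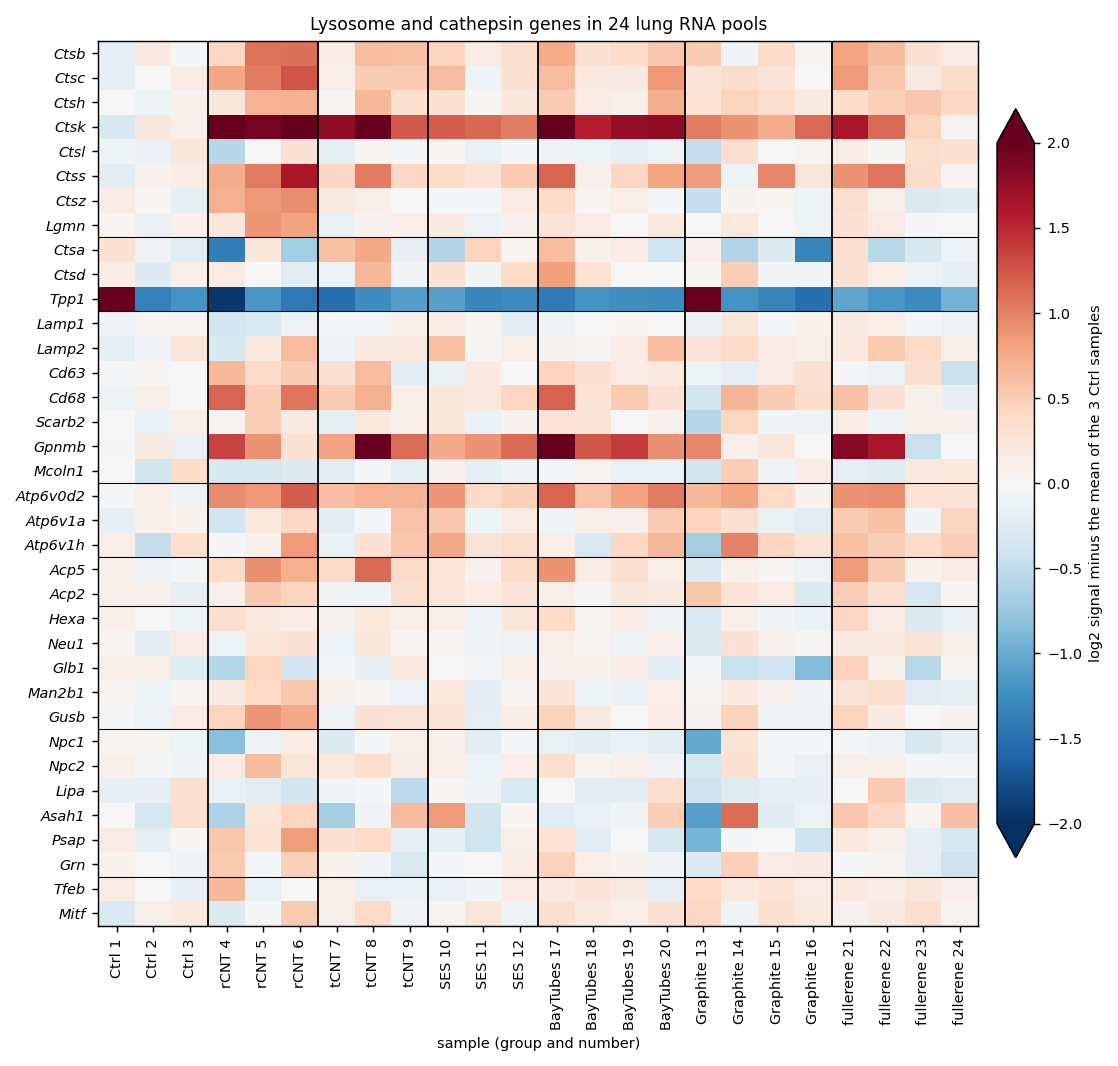
Log2 signal of 36 genes in each of the 24 pools minus the mean of the 3 Ctrl pools (red above, blue below, colours end at 2 in both directions), with lines between groups and between roles: cysteine cathepsins and legumain, other proteases, membrane proteins, proton pump subunits, acid phosphatases, glycosidases, lipid handling genes and transcription factors. Ctsk lay above every Ctrl sample in 20 of 21 material samples, and the Tpp1 row is offset by the high value of Ctrl 1.

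The comparison of each material with Ctrl asks which of these genes differ in the lung after dosing. After rCNT, 7 of the 8 listed cysteine cathepsins and legumain rose, as did the proton pump subunit Atp6v0d2, the glycosidase Gusb and the membrane protein Cd63, while Lamp1 fell. Among the 8, Ctsl was not called, and Ctsf, a cysteine cathepsin that is not a member, fell by 0.78 ± 0.15. Of 36 genes, 11 were called (30.6%), 10 higher and 1 lower, where 21.8% of all genes tested were called, 12.4% higher and 9.41% lower. The members were chosen with earlier results of these data known. Their share, here and in the other comparisons, is therefore not independent of the data. The median difference of the 36 genes was 0.21, against -0.02 over all genes. By role, the calls were 7 of 8 cysteine cathepsins and legumain, 2 of 7 membrane proteins, 1 of 3 proton pump subunits and 1 of 5 glycosidases.

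Ctsk, a collagen-cutting cathepsin known from osteoclasts, showed the largest difference of any member. Its signal was 10.63, 11.19 and 11.05 in the Ctrl samples and 13.20, 12.88 and 13.40 in the rCNT samples. The lowest rCNT sample lay well above the highest Ctrl sample. The difference was 1.98 ± 0.30, a 3.93-fold higher signal (adjusted p = 8.89e-05). It was called without each of the 6 samples in turn, at 1.74 to 2.21, and with array as a fixed term, at 1.72 (adjusted p = 0.0404, limma).

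Ctsk was also the member that differed from Ctrl after the most materials. The tCNT samples had 12.73, 13.13 and 12.19, the BayTubes samples 13.30, 12.52, 12.71 and 12.74, and the SES samples 12.18, 12.10 and 11.98. The Graphite samples had 12.00, 11.85, 11.69 and 12.09, and the fullerene samples 12.59, 12.09, 11.41 and 11.00. Of 21 material samples, 20 lay above every Ctrl sample, and the exception was fullerene 24.

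Ctsk rose by 1.77 ± 0.24 after BayTubes (3.40-fold, adjusted p = 0.00038, limma) and by 1.65 ± 0.29 after tCNT (3.13-fold, adjusted p = 0.015, limma). The tCNT call was lost without Ctrl 1, Ctrl 2 or tCNT 8, with an adjusted p of up to 0.319 and a difference of 1.25 to 1.80. The differences after SES (1.01 ± 0.29, adjusted p = 0.559, limma), Graphite (0.90 ± 0.26, adjusted p = 0.0836, limma) and fullerene (0.81 ± 0.27, adjusted p = 0.268, limma) did not pass the threshold. In order of group means, Ctsk stood at 13.16 in rCNT, 12.82 in BayTubes, 12.68 in tCNT, 12.09 in SES, 11.91 in Graphite, 11.77 in fullerene and 10.96 in Ctrl.

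The 3 materials named as nanotubes were the 3 highest, and their samples overlapped. The Ctsk difference between rCNT and tCNT was 0.33 ± 0.29, with a 95% interval of -0.28 to 0.93, and that between rCNT and BayTubes 0.21 ± 0.28, with an interval of -0.37 to 0.79. Neither passed the threshold, and the intervals leave room for either sign. An F test found a difference among the 6 materials for Ctsk (adjusted p = 0.004, limma).

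**Figure D3:**
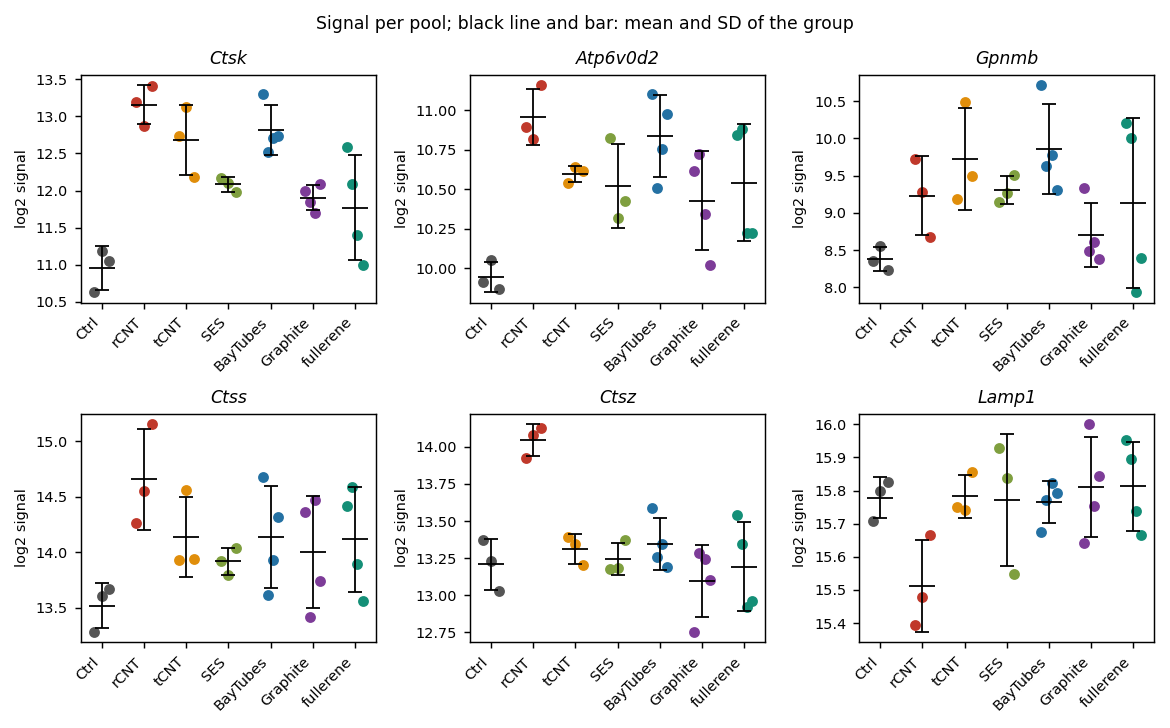
Log2 signal of Ctsk, Atp6v0d2, Gpnmb, Ctss, Ctsz and Lamp1 in each pool (points) by group, with the group mean and SD in black, on axes that differ between genes and do not start at 0. Ctsk was raised in nearly all material samples, Ctsz lay between 13.92 and 14.13 in the rCNT samples, above all other samples, and Lamp1 was below every Ctrl sample in the 3 rCNT samples.

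Ctss, the cathepsin that trims the invariant chain of MHC class II, has no protein-coding gene between itself and Ctsk on chromosome 3 in the RefSeq table. Its signal was 13.28, 13.60 and 13.66 in Ctrl and 14.26, 14.55 and 15.15 in rCNT, without overlap. It rose by 1.12 ± 0.33 (2.18-fold, adjusted p = 0.0202, limma), but the call was lost without Ctrl 1, Ctrl 2 or rCNT 6, with a difference of 0.85 to 1.34. Over the 6 materials, 18 of 21 samples lay above every Ctrl sample, and the Graphite samples spread from 13.42 to 14.47.

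Ctsc, which activates the serine proteases of granulocytes and cytotoxic cells, had 11.88, 12.08 and 12.23 in Ctrl and 12.84, 13.09 and 13.32 in rCNT. The groups did not overlap, and Ctsc rose by 0.99 ± 0.21 (adjusted p = 0.00222, limma). Ctsb, an abundant cathepsin that cuts as both an endopeptidase and an exopeptidase, had 13.53, 13.89 and 13.66 in Ctrl and 14.12, 14.78 and 14.80 in rCNT. It rose by 0.85 ± 0.22 (adjusted p = 0.00782, limma), and the call was lost without Ctrl 1 (adjusted p = 0.0546). The rCNT 4 sample was the lowest of its group for Ctsb, Ctsc and Ctss, and for 24 of the 36 members in all.

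Ctsh, an aminopeptidase that takes part in surfactant protein processing in alveolar type 2 cells, had 14.85, 14.77 and 14.93 in Ctrl and 15.08, 15.55 and 15.56 in rCNT. It rose by 0.62 ± 0.16 (adjusted p = 0.00804, limma). Outside rCNT it was not called after any material, but 19 of 21 material samples lay above every Ctrl sample.

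Ctsz and Lgmn were raised after rCNT and not called after any other material, which held for every member called after rCNT except Ctsk and Atp6v0d2. Ctsz, a carboxypeptidase, had 13.37, 13.23 and 13.03 in Ctrl and 13.92, 14.08 and 14.13 in rCNT, and rose by 0.67 ± 0.17 (adjusted p = 0.00622, limma). With array as a fixed term the Ctsz difference was 0.31 (adjusted p = 0.46, limma). The other 18 material samples lay between 12.75 and 13.59, below every rCNT sample. Lgmn, legumain, which processes cathepsins to their mature forms, had 13.45, 13.28 and 13.51 in Ctrl and 13.63, 14.30 and 14.22 in rCNT, and rose by 0.65 ± 0.13 (adjusted p = 0.00159, limma). Its rCNT 4 sample fell within the range of the other materials. Ctsl, an endopeptidase of the same family, was the only one of these 8 genes that was not called, with a difference of -0.11 ± 0.15 and a 95% interval of -0.43 to 0.21.

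The proteases of other classes were not called. Ctsd, the aspartic protease of lysosomes, differed by -0.01 ± 0.23 after rCNT, with an interval of -0.48 to 0.46. Its second, dimmer spot had a difference of -0.67 between group means. Ctsa, a serine carboxypeptidase that also stabilises Neu1 and Glb1, had 12.90, 12.54 and 12.40 in Ctrl and 11.23, 12.84 and 11.93 in rCNT, a difference of -0.51 ± 0.34 within a wide spread.

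Among the membrane proteins, Cd63 and Lamp1 were called in opposite directions after rCNT. Cd63, a tetraspanin of late endosomes, had 14.25, 14.31 and 14.28 in Ctrl and 14.93, 14.66 and 14.80 in rCNT, and rose by 0.50 ± 0.17 (adjusted p = 0.0366, limma). The Cd63 call was lost without any 1 of 5 of the 6 samples (all but rCNT 5), at 0.45 to 0.63. Lamp1, the main lysosomal membrane glycoprotein, had 15.71, 15.80 and 15.83 in Ctrl and 15.39, 15.48 and 15.66 in rCNT. It fell by 0.36 ± 0.11 (adjusted p = 0.0238, limma), and the call was lost without Ctrl 2, Ctrl 3, rCNT 4 or rCNT 5, at -0.42 to -0.31.

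The other membrane proteins were not called after rCNT. Cd68, a macrophage membrane protein, had 7.59, 7.81 and 7.68 in Ctrl and 8.86, 8.19 and 8.76 in rCNT, with a difference of 0.63 ± 0.27 (adjusted p = 0.0946, limma). Gpnmb, a glycoprotein of lipid-laden and lysosome-stressed macrophages, ranged from 7.94 in fullerene 23 to 10.72 in BayTubes 17. Its differences were 0.68 ± 0.51 after rCNT, 1.18 ± 0.50 after tCNT and 1.41 ± 0.42 after BayTubes (adjusted p = 0.0772, limma). Every rCNT, tCNT, SES and BayTubes sample lay above every Ctrl sample for Gpnmb, while the fullerene samples had 10.20, 10.01, 7.94 and 8.39. Ctsk, Ctss, Ctsz and Acp5 were also higher in fullerene 21 and 22 than in fullerene 23 and 24. The first pair carried the dye Cy5 and the second Cy3, and Ctsl was higher in the second pair. In tCNT and BayTubes the highest Gpnmb samples, tCNT 8 at 10.49 and BayTubes 17 at 10.72, carried Cy3. The part of the dye in these spreads was not tested. Lamp2, Scarb2, which carries glucocerebrosidase to lysosomes, and the calcium channel Mcoln1 differed by 0.20, 0.22 and -0.27 after rCNT.

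Atp6v0d2, a membrane subunit of the proton pump that is known from osteoclasts and macrophages, was the other member called after more than 1 material. Its signal was 9.91, 10.05 and 9.87 in Ctrl, 10.90, 10.82 and 11.16 in rCNT, and 11.10, 10.51, 10.76 and 10.98 in BayTubes. Of 21 material samples, 20 lay above every Ctrl sample, the exception being Graphite 16 at 10.02. It rose by 0.92 ± 0.19 after rCNT (1.89-fold, adjusted p = 0.00197, limma) and by 0.87 ± 0.16 after BayTubes (1.83-fold, adjusted p = 0.00345, limma), and both calls were kept without each sample in turn. Both were lost with array as a fixed term, at 0.77 (adjusted p = 0.135, limma) after rCNT and 0.87 (adjusted p = 0.0878, limma) after BayTubes. A second spot of the gene differed by 0.70 and 0.73 between group means in these comparisons. The pump subunits Atp6v1a and Atp6v1h, of the cytoplasmic part that splits ATP, differed by 0.13 ± 0.22 and 0.06 ± 0.31 after rCNT and were not called.

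The acid phosphatase Acp5, known as the tartrate-resistant enzyme of osteoclasts and macrophages, had 12.81, 12.67 and 12.70 in Ctrl and 13.11, 13.64 and 13.43 in rCNT. The groups did not overlap, but the difference of 0.56 ± 0.23 did not pass (adjusted p = 0.0793, limma). A second Acp5 spot differed by 0.89 between group means. Acp2, the general lysosomal acid phosphatase, differed by 0.33 ± 0.16, and its second spot by -0.37.

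Of the 5 glycosidases, Gusb (beta-glucuronidase) was called after rCNT. It had 11.28, 11.19 and 11.48 in Ctrl and 11.76, 12.20 and 12.07 in rCNT, and rose by 0.69 ± 0.16 (adjusted p = 0.00348, limma). Gusb had 10 named spots, whose rCNT differences between group means ran from -0.07 to 0.81, and whether they are the same probe repeated was not determined. Man2b1 (alpha-mannosidase), Neu1 (sialidase), Hexa (a beta-hexosaminidase subunit) and Glb1 (beta-galactosidase) differed by 0.33, 0.12, 0.08 and -0.19 and were not called.

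None of the 6 lipid handling genes and helpers was called after rCNT. The cholesterol exporters Npc2 and Npc1 differed by 0.30 ± 0.13 and -0.44 ± 0.24, and the sphingolipid activator precursor Psap by 0.38 ± 0.24. The acid lipase Lipa, the acid ceramidase Asah1 and progranulin (Grn) differed by -0.27, -0.15 and 0.18. The transcription factors Tfeb and Mitf differed by 0.17 ± 0.16 and 0.15 ± 0.19, with 95% intervals of -0.15 to 0.50 and -0.25 to 0.54.

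The other materials gave few calls. After tCNT, Ctsk was the 1 member called of 36 (2.78%), where 0.708% of all genes were called, 0.684% higher and 0.0242% lower. After BayTubes, Ctsk and Atp6v0d2 were called, 2 of 36 (5.56%) against 3.18% of all genes, 2.16% higher and 1.02% lower. After SES, Graphite and fullerene limma called 0 of 36, against 0.0%, 1.13% and 0.26% of all genes, and 2, 4 and 4 members had an unadjusted p under 0.05. The medians of the 36 differences were 0.11 after tCNT, 0.15 after BayTubes and 0.04, 0.07 and 0.08 after SES, Graphite and fullerene.

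Members were also counted where every sample of a material lay above every Ctrl sample. The count was 18 of 36 after rCNT, against 18.9% of all genes, and 9 after BayTubes, against 6.54%. It was 7 after tCNT against 8.94%, 7 after SES against 7.25%, 3 after Graphite against 9.41% and 4 after fullerene against 11.2%. Ctsk, Gpnmb, Cd68, Atp6v0d2 and Acp5 were among these members after rCNT, tCNT, SES and BayTubes alike. The share of all genes that did so was not counted. These comparisons use the same 3 Ctrl samples and are not independent of each other. The mean of the 5 materials other than rCNT was above Ctrl for Ctsk (1.23 ± 0.22, adjusted p = 0.00855, limma) and Atp6v0d2 (0.60 ± 0.14, adjusted p = 0.0372, limma), where 1.34% of all genes were called, 1.03% higher. The Ctsk call was lost without Ctrl 1 or Ctrl 2, and the Atp6v0d2 call without 10 of 21 samples left out in turn, among them each Ctrl sample.

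**Figure D4:**
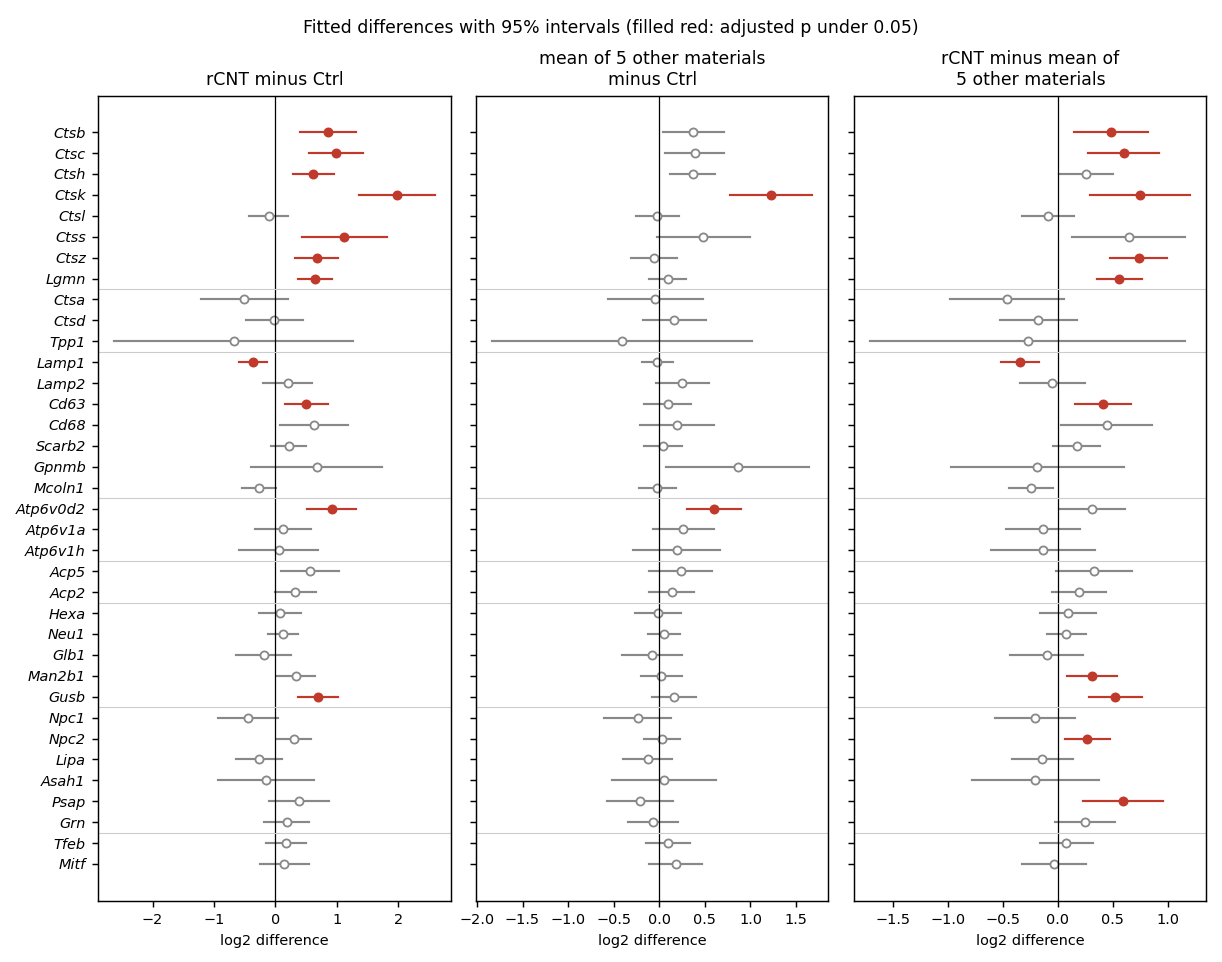
Fitted log2 difference (point) and 95% interval (line) of 36 members in 3 comparisons, with filled red points for calls and grey lines between roles, on axes that differ between panels. After rCNT 11 members were called, in the mean of the other 5 materials Ctsk and Atp6v0d2, and between rCNT and that mean 11.

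The direct comparison of rCNT with the mean of the other 5 materials asks which members differ between materials. Of 36 members, 11 were called (30.6%), 10 higher and 1 lower, where 26.2% of all genes were called, 13.8% higher and 12.4% lower. Ctsz was higher in rCNT by 0.73 ± 0.12 (adjusted p = 0.000193, limma), Lgmn by 0.56 ± 0.10 (adjusted p = 0.000326, limma) and Gusb by 0.52 ± 0.12 (adjusted p = 0.00219, limma), and all 3 calls were kept without each sample in turn. With array as a fixed term all 3 were lost, at 0.56 (adjusted p = 0.09, limma) for Ctsz, 0.50 (adjusted p = 0.0655, limma) for Lgmn and 0.41 (adjusted p = 0.187, limma) for Gusb. Lamp1 was lower by 0.34 ± 0.08 (adjusted p = 0.00402, limma), and its call was kept both without each sample in turn and with array as a fixed term (-0.51, adjusted p = 0.0419, limma).

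Ctsk (0.75 ± 0.22), Psap (0.60 ± 0.17), Ctsc (0.60 ± 0.16), Ctsb (0.48 ± 0.16), Cd63 (0.41 ± 0.12), Man2b1 (0.31 ± 0.11) and Npc2 (0.27 ± 0.10) were also higher, with adjusted p of 0.00752 to 0.0473 in limma. The calls of Ctsk, Psap and Cd63 were lost without rCNT 4 or rCNT 6, that of Ctsc without rCNT 6 and that of Ctsb without rCNT 5, rCNT 6 or SES 11. Those of Man2b1 and Npc2 were lost without 9 and 13 of 21 samples. Man2b1 had 12.57, 12.77 and 12.92 in rCNT and 12.15 to 12.73 in the other materials, and Npc2 had 14.59, 15.07 and 14.68 against 14.08 to 14.79, so both overlapped. Psap had 13.41, 13.06 and 13.28 in Ctrl and 13.79, 13.52 and 14.08 in rCNT, and its lowest sample was Graphite 13 at 12.32. Atp6v0d2 differed by 0.31 ± 0.14 and did not pass, with an interval of 0.02 to 0.61.

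Against tCNT alone, Ctsz (0.66 ± 0.16, adjusted p = 0.0156, limma) and Lgmn (0.59 ± 0.13, adjusted p = 0.00895, limma) were higher in rCNT, 2 of 36 members where 8.84% of all genes were called, 5.71% higher and 3.14% lower. The Ctsz call was lost without rCNT 6, tCNT 7 or tCNT 9 and the Lgmn call without tCNT 7. Against BayTubes, Ctsz, Lgmn and Gusb were higher and Lamp1 lower, 4 of 36 where 13.1% of all genes were called (8.0% higher, 5.05% lower), by 0.61 ± 0.16, 0.46 ± 0.12, 0.46 ± 0.15 and -0.34 ± 0.10. The Ctsz call was lost without BayTubes 19, the Lgmn call without rCNT 5, rCNT 6 or BayTubes 19, the Gusb call without 6 of 7 samples and the Lamp1 call without 5 of 7. In the F test among the 6 materials, Ctsk, Ctsz, Lgmn, Cd63, Gusb and Psap were called, 6 of 36 (16.7%) where 16.5% of all genes were called. The Cd63 call was lost without 17 of 21 samples, the Psap call without 6, the Gusb call without 5 and the Lgmn call without rCNT 5 or rCNT 6.

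Slides could be separated only in part, since slide 3 held no Ctrl sample and slide 2 no tCNT sample. Within slide 1, which held 1 Ctrl and 1 rCNT sample, 11 of the 11 members called after rCNT had the same direction, but only Ctsk (adjusted p = 0.0205, limma) and Ctsz (adjusted p = 0.0473, limma) passed the threshold. The Ctsb difference there was 0.22, against 0.85 over all slides. Of all 39 calls, 29 were lost within slide 1. Within slide 2, which held 2 Ctrl samples and 1 rCNT sample, 10 of 11 had the same direction, and Ctsk, Ctsz, Ctsc and Atp6v0d2 passed. The Ctsk difference was 1.80 within slide 1 and 2.33 within slide 2, and the Lamp1 difference was 0.23 within slide 2. With slide as a term all 11 kept their direction. All of these fits reuse samples that made the calls, so a kept direction is not independent support for them.

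Other genes of the lysosome and of the pathways around it were listed apart from the members. Their counts, and those of the marker lists, stand beside a share of all genes called of 21.8% after rCNT (12.4% higher, 9.41% lower), 3.18% after BayTubes (2.16% higher, 1.02% lower) and 0.708% after tCNT (0.684% higher, 0.0242% lower). These lists too were chosen with earlier results of these data known, so their counts are not independent of the data. Of 24 other hydrolases 19 were tested, and 1 rose and 5 fell after rCNT, with a median of -0.08 against -0.02 over all genes. The 3 with the smallest p all fell: the cathepsin Ctsf by 0.78 ± 0.15 (adjusted p = 0.000895, limma), the heparan and dermatan sulfate hydrolase Idua by 0.67 ± 0.17 (adjusted p = 0.00831, limma) and the glycogen hydrolase Gaa by 0.52 ± 0.15 (adjusted p = 0.0189, limma). None of 13 other proton pump subunits was called, with a median of 0.11. Of 14 other membrane and sorting genes 2 rose and 1 fell: the metal transporter Slc11a1 rose by 0.87 ± 0.27, Gnptab, which makes the mannose 6-phosphate tag, rose by 0.58 ± 0.17, and the sorting receptor Sort1 fell by 0.77 ± 0.12.

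In the MiT family and nutrient sensing list, 1 of 12 genes rose and 1 fell after rCNT. Tfec, the macrophage-enriched MiT member, rose by 1.37 ± 0.28 (adjusted p = 0.00163, limma), and Flcn, folliculin, which acts on the Rag proteins at the lysosome, fell by 0.62 ± 0.11 (adjusted p = 0.00042, limma). Of 11 autophagy genes 2 fell, both coding for proteins of autophagosome membranes: Map1lc3b by 0.42 ± 0.13 and Gabarapl1 by 0.62 ± 0.19. Gabarapl1 also fell after BayTubes, by 0.72 ± 0.16 (adjusted p = 0.0136, limma).

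Of 5 genes for galectins and a partner that mark damaged lysosomes, Lgals3 rose by 1.34 ± 0.21 (adjusted p = 0.000123, limma) and Lgals1 by 1.27 ± 0.22 (adjusted p = 0.000315, limma) after rCNT. Lgals3 also rose after BayTubes, by 0.65 ± 0.17 (adjusted p = 0.0391, limma). Both are also made by macrophages at large. Of 8 cathepsin inhibitors 7 were tested and 2 rose after rCNT, Cst7 (cystatin F) by 1.12 ± 0.20 and Cstb (cystatin B) by 1.06 ± 0.19.

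Genes of osteoclasts and multinucleated giant cells were listed because Ctsk, Acp5 and Atp6v0d2 are known from those cells. After rCNT 4 of the 12 tested rose and none fell, with a median of 0.21. The fusion genes Ocstamp and Dcstamp rose by 2.45 ± 0.26 (adjusted p = 2.78e-06, limma) and 2.30 ± 0.29 (adjusted p = 1.64e-05, limma), and the lipid receptor Trem2 by 2.26 ± 0.45 (adjusted p = 0.00122, limma). After BayTubes none of the 12 was called, with a median of 0.12. The genes named after rCNT are given for BayTubes too, as an exception to the naming rule. Ocstamp differed there by 0.10 ± 0.21, Dcstamp by 0.70 ± 0.24 and Trem2 by 1.11 ± 0.37. Whether Ctsk and Atp6v0d2 rose apart from these genes after BayTubes was not tested.

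Markers of other cells moved with rCNT beside the cathepsins, and their part in the results was not tested. For these lists too, 12.4% of all genes were called higher and 9.41% lower after rCNT. Of 13 markers of monocytes and recruited macrophages 11 were tested, and 8 rose and 2 fell after rCNT, with Cd14 at 2.00 ± 0.17, C1qc at 1.65 ± 0.27 and C1qa at 1.48 ± 0.25. The 2 that fell, chosen after their values were seen, were Lyz2 (by 0.94 ± 0.20), which alveolar type 2 cells also express, and Itgam (by 0.70 ± 0.16). The mean of the list lay between 10.65 and 10.74 in Ctrl, 11.75 and 11.89 in rCNT, 10.93 and 11.25 in tCNT and 10.87 and 11.54 in BayTubes. Cd14 rose after tCNT by 0.76 ± 0.17 and after BayTubes by 0.97 ± 0.14, the only marker of this list called there.

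Of 10 alveolar macrophage markers 4 rose and 1 fell after rCNT, with a median of -0.10: Fabp4 rose by 1.16 ± 0.25, Mrc1 rose by 1.08 ± 0.23 and Abcg1 fell by 0.79 ± 0.17. The mean of that list overlapped between Ctrl (11.79 to 11.87) and rCNT (11.64 to 12.23). All 5 tested markers of dividing cells rose after rCNT and after BayTubes, and 2 of 5 after tCNT, with list means of 7.86 to 8.28 in Ctrl, 10.52 to 10.80 in rCNT, 9.04 to 10.04 in BayTubes and 9.17 to 9.58 in tCNT. Of 4 tested eosinophil and basophil markers 3 rose after rCNT, and of 8 neutrophil markers 2 rose and 1 fell.

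Markers of structural cells were called mostly in the lower direction after rCNT. Of 7 endothelial markers 6 fell, with Ramp2 at -0.80 ± 0.15, Kdr at -0.76 ± 0.15 and Tek at -1.40 ± 0.31, and list means of 13.29 to 13.36 in Ctrl against 12.51 to 12.68 in rCNT. Of 8 alveolar type 2 markers 2 fell, and of 7 fibroblast markers 1. Of 5 T cell markers 1 rose, and 0 of 4 B cell and 0 of 6 heart muscle markers were called. Alveolar type 2 markers, which are typical of lung, had list means of 14.94 to 15.14 in Ctrl.

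**Figure D5:**
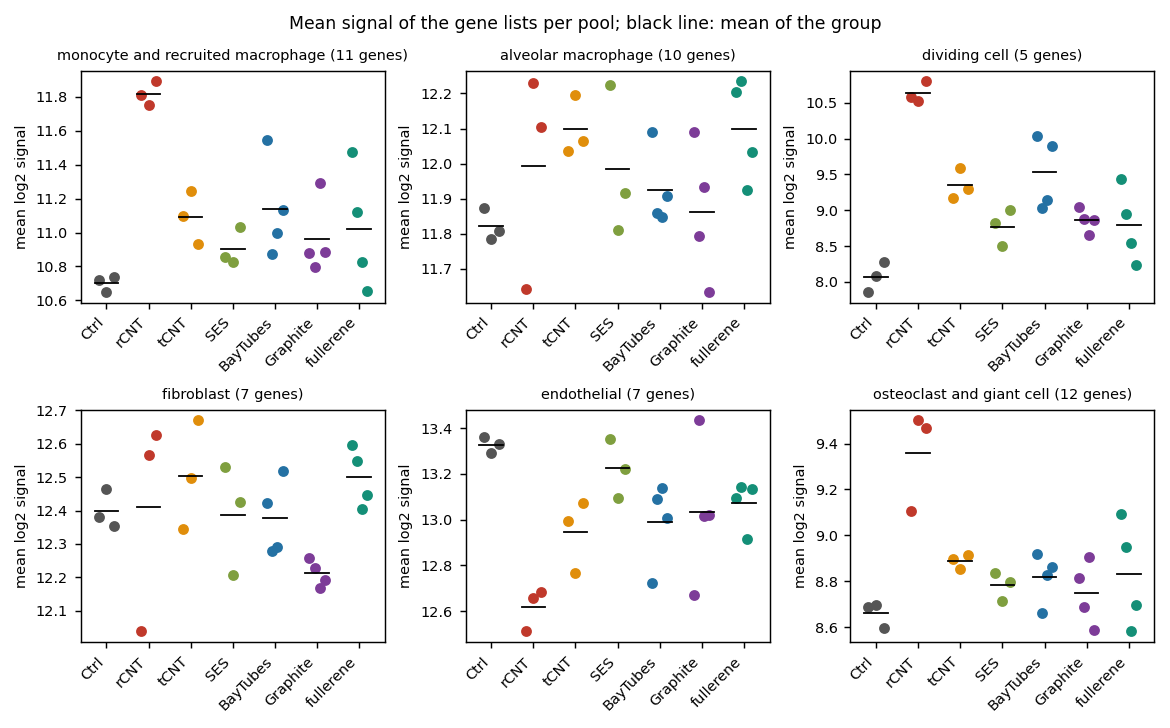
Mean log2 signal of 6 gene lists in each pool (points) by group, with the mean of the group as a black line, on axes that differ between lists and do not start at 0. The monocyte and recruited macrophage list lay between 11.75 and 11.89 in rCNT against 10.65 to 10.74 in Ctrl, the dividing cell list was highest in rCNT, and the endothelial list lowest.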

How the data were processed

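The authors deposited a log2 signal for every spot in every sample, from 12 two-colour arrays on 3 slides. The submitters' processing notes name Agilent Feature Extraction and limma without versions. Once sorted, the samples' values differed from each other by no more than 0.086. Background correction and scaling are not given in the sources used here. The platform table named a gene for 31465 of 62976 spots. The RefSeq table (GRCm38.p6) matched 29036 of these names through an accession, 2075 through the same symbol and 349 through a synonym. The 5 matched in none of these ways kept the platform's name. Tfeb is named Tcfeb on the platform.

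The filter kept genes whose signal exceeded a sample's 40th percentile (5.69 to 5.75) in 3 or more samples, 16519 of 20738. The fit used R 4.3.3, statmod 1.5.0 and limma 3.58.1 over all 24 samples, with group and dye as terms, array as a random block (correlation 0.399) and variances moderated by eBayes (prior degrees of freedom 3.54, residual 16). Tests were 2-sided with Benjamini-Hochberg adjustment over all genes. The residuals of samples that shared an array correlated at 0.174 to 0.827, with a median of 0.411.

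Every member could be named, and of each other list up to 3 genes per comparison with the smallest p among those called; exceptions are stated. Members and lists were chosen with earlier results of these data known. Alternatives changed the dye term, array block, slide, samples in the fit, filter, normalization, choice of spot, variance prior and threshold, and left out each sample in turn. Fits within a slide assume that a lone sample varies like the other groups. The fit was tested on simulated data. Promoters came from RefSeq.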

Additional observations from a re-analysis of the deposited data

Results flagged for a closer look

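In groups of 4 samples, 108 sets of 4 values (36 genes in Graphite, BayTubes and fullerene) were searched for a sample far from the others, and 3 were found. Chance alone gives about 1 in 20 such sets. Tpp1 had a signal of 15.97 in Graphite 13, against 10.18 to 10.49 in the other Graphite samples. Scarb2 had 10.55 in fullerene 22, against 10.75 to 10.79 in the other fullerene samples. Tfeb had 8.01 in BayTubes 20, against 8.35 to 8.43 in the other BayTubes samples.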

How the results depend on the processing

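Of 39 calls, 39 were kept with a filter at the 60th percentile and with robust variances, 38 with slide as a term, with values quantile-normalized again and with values centred and scaled, 37 with no filter and with the mean of all spots, 34 without the dye term, 33 without the array block and 21 with only the groups of the comparison in the fit. Within slide 1 10 of 39 were kept, and within slide 2 7 of the 17 that could be fitted there. With array as a fixed term 3 were kept: Ctsk after rCNT and after BayTubes, and Lamp1 between rCNT and the other 5 materials. Chosen after seeing the data, the fit without the array that held rCNT 4 and Graphite 16 kept 27, and that without the array of Ctrl 1 and Graphite 13 kept 31. Counts of called members that moved were as follows. With array as a fixed term they were 4 after rCNT, 0 after tCNT, 1 after BayTubes, 2 for rCNT against the other 5, and 0 for the other 5 against Ctrl, rCNT against tCNT, rCNT against BayTubes and the F test. Of the calls in that fit, 4 were new and not among the 39. With only the groups compared the counts were 6 after rCNT, 0 after tCNT, 0 for rCNT against tCNT, 0 for rCNT against BayTubes and 3 in the F test. Within slide 1 they were 5 after rCNT, 0 after tCNT, 0 after BayTubes, 0 for the other 5 against Ctrl, 6 for rCNT against tCNT and 0 in the F test, and within slide 2 they were 8 after BayTubes, 3 after Graphite and 5 after fullerene. Without the array of rCNT 4 they were 7 for rCNT against the other 5, 2 for rCNT against BayTubes and 3 in the F test, and without that of Ctrl 1 they were 0 after tCNT and 0 for the other 5 against Ctrl. With no array block the other 5 against Ctrl gave 1. At an adjusted p under 0.01 the counts were 0 after tCNT, 5 for rCNT against the other 5, 1 for the other 5 against Ctrl, 1 for rCNT against tCNT, 0 for rCNT against BayTubes and 3 in the F test, and at 0.1 they were 4 after BayTubes, 1 after Graphite, 4 for rCNT against tCNT and 10 in the F test. Leaving out 1 sample at a time gave 8 to 11 after rCNT, 0 to 1 after tCNT, 0 to 0 after SES, Graphite and fullerene, 2 to 3 after BayTubes, 5 to 13 for rCNT against the other 5, 0 to 2 for the other 5 against Ctrl, 0 to 4 for rCNT against tCNT, 0 to 4 for rCNT against BayTubes and 2 to 7 in the F test. Signs turned within slide 2 for Lamp1 after rCNT (0.23), Npc1 after rCNT (1.497), BayTubes (1.18) and fullerene (1.23), and Asah1 after rCNT (2.38) and Graphite (0.93), and with array as a fixed term for Atp6v1h after rCNT (-0.84). The cause was not tested. No paired analysis was possible because the groups share no replicate numbers that could serve as a block. Arrays do join samples of different groups, and the fit with array as a fixed term, whose counts are given here, is the comparison within arrays.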
